A study of Mus musculus with 8 samples.

Results

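The translation initiation and elongation factors were followed at the mRNA level in RAW264.7 macrophages, an established mouse macrophage line, over 2 h of stimulation with LPS, the lipopolysaccharide of the outer membrane of E. coli. They were picked by name, with earlier results of these data known. The rule took every gene symbol that begins with Eif1 to Eif6, Eef1 or Eef2 apart from the eIF2 kinases. It gave 63 of 23143 symbols in the count table. Of these, 59 are named as translation factors or their direct regulators, and 4 (Eif2c1, Eif2c2, Eif2c3 and Eif2c4) are older symbols of the Argonaute genes, which bind small RNAs and are described apart. Libraries were made from untreated cells (0 min) and from cells given LPS at 100 ng/ml for 15, 30, 45, 60, 75, 90 or 120 min, with 1 library per time point and no other agent or genotype. A single cell line was used, so no variation between animals is part of the data. The labels give the RNA both as total RNA and as a cytoplasmic fraction, while the study states that total RNA was isolated for this time course. A change in RNA stability cannot be told apart from a change in synthesis.

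Protein synthesis starts when eIF2 brings the initiator tRNA to the small ribosomal subunit, which is held open by eIF1, eIF1A and eIF3, while the cap-binding complex eIF4F (the cap-binding protein eIF4E, the helicase eIF4A and the scaffold eIF4G) recruits the mRNA. The exchange factor eIF2B recharges eIF2 with GTP, and stress kinases block this step by phosphorylating eIF2. 4E-binding proteins keep eIF4E from eIF4G until the kinase mTOR phosphorylates them, and eEF1A and eEF2 then carry the ribosome along the mRNA. In macrophages, LPS acts on these proteins through mTOR and MAP kinases, and the cells translate large amounts of cytokine mRNA within hours.

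Total counts per library ranged from 100250892 to 159077286, of which the 63 genes took between 2.82% and 3.26%. Of 10 macrophage markers, 8 were listed in the table, each with at least 5528 counts in every library, whereas no T cell, B cell, epithelial or fibroblast marker passed 16 counts. The ribosomal RNA precursor Rn45s made up 8.18% to 9.11% of the libraries of 0, 30, 60 and 120 min, and 12.96% to 20.5% of those of 15, 45, 75 and 90 min. Counts were divided by median-of-ratios size factors (normalized counts). Division by total counts instead would lower the log2 ratio of every gene to 0 min by 0.20 at 120 min and by 0.33 at 75 min. The distance between the log2 ratios of any pair of genes, or between medians of such ratios, is the same on both scales. The order of a gene's libraries can differ between the scales, and orders given below are those of normalized counts.

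Levels of the factors in unstimulated cells spanned several orders of magnitude. Levels are given in rpkm, reads per kb of sequence unique to the gene, scaled to the total counts of the library. The highest were Eef1a1, the carrier of aminoacyl-tRNA, with 7308 rpkm, followed by the helicase Eif4a1 with 1228 rpkm, the translocase Eef2 with 976 rpkm, the eEF1 exchange complex subunit Eef1g with 814 rpkm, and Eif5a, which helps ribosomes past difficult peptide bonds, with 494 rpkm. Counts on Eef1a1 alone made up between 1.02% and 1.27% of each library. The median level of the 63 genes was 49.6 rpkm, and by role it was 261.1 rpkm for the elongation genes, 160.8 rpkm for eIF3, 52.8 rpkm for the cap-binding and helicase genes, 33.6 rpkm for eIF2B, 6.66 rpkm for the 4E-binding proteins and 1.86 rpkm for the Argonaute genes.

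**Figure D1:**
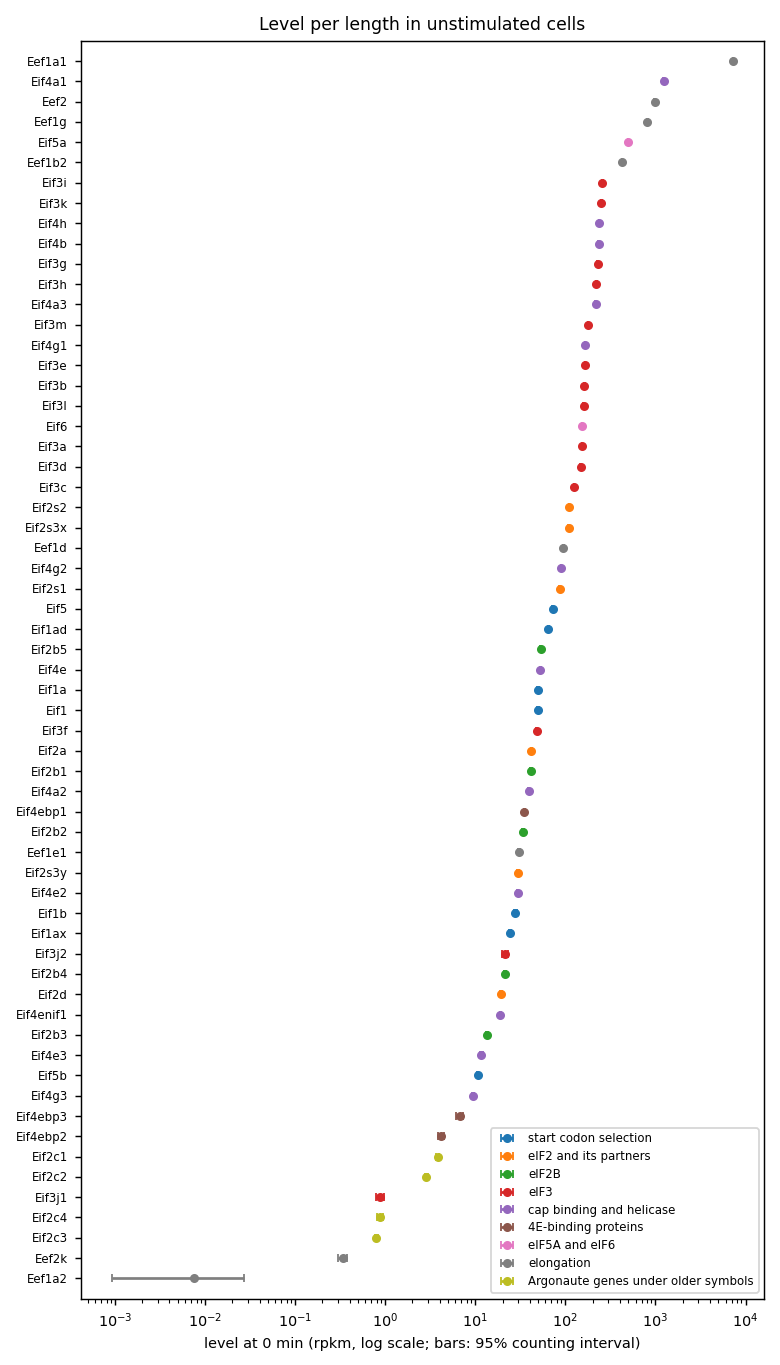
Level per length in unstimulated cells (x axis, rpkm on a log scale) of the 61 genes with a count at 0 min, coloured by role, with 95% counting intervals. Eef1a1 stands at 7308 rpkm, and Eef1a2 lies at the bottom at 0.00753 rpkm.

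At the low end stood Eef2k, the kinase that inhibits eEF2, with 0.335 rpkm, Eif2c3 with 0.797 rpkm, Eif2c4 with 0.866 rpkm and Eif3j1 with 0.877 rpkm. Several tissue-restricted paralogues had few or no reads. Eef1a2, the form of eEF1A of neurons and muscle, had between 1 and 7 counts per library, and neither Eif4e1b, the oocyte form of eIF4E, nor Eif5a2 had a count in any library, which allows at most 3 counts in each. The 60 other genes had between 131 and 1862753 counts in each library and were tested, and 54 of them had at least 1000 counts in all libraries.

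Over the 2 h most of the factors that moved went up, by modest amounts. A straight line over time was fitted to the counts of all genes that averaged 10 or more normalized counts (edgeR quasi-likelihood test of the slope over 8 libraries, 6 residual degrees of freedom, Benjamini-Hochberg adjusted over 12166 genes). At an adjusted p limit of 0.05, 35 of the 60 factors had a rising slope, 4 had a falling slope and 21 were not called. Of all genes tested, 23.7% were called higher and 23.7% lower, and among genes averaging 1000 or more normalized counts the shares were 28.2% and 22.9%. The median slope was 0.14 per hour on the log2 scale for the factors and -0.0018 for all genes. "Rose" and "fell" are used below for these calls. Counts of factors include the 4 Argonaute genes unless stated otherwise.

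The split depended on the scale. With total counts, 11 factors were higher and 9 lower, against 9.89% and 36.7% of all genes, and 4 of the 35 risers (Eef1a1, Eif2a, Eif3g and Eif4a3) had a slope below 0. With the 0, 30, 60 and 120 min libraries alone, which share a low Rn45s content, 19 were higher and 2 lower, against 12.3% and 8.61% of all genes. In each of the 17 settings tried, Eif1, Eif1a, Eif5, Eif2s2, Eif3j1, Eif3j2, Eif4a1, Eif4e, Eif4g2, Eef1e1 and Eif2c3 were called higher and Eif2b4 lower. The settings share most of their libraries, and the share of all genes called in every setting was not computed. No gene was called in opposite directions by different settings.

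**Figure D2:**
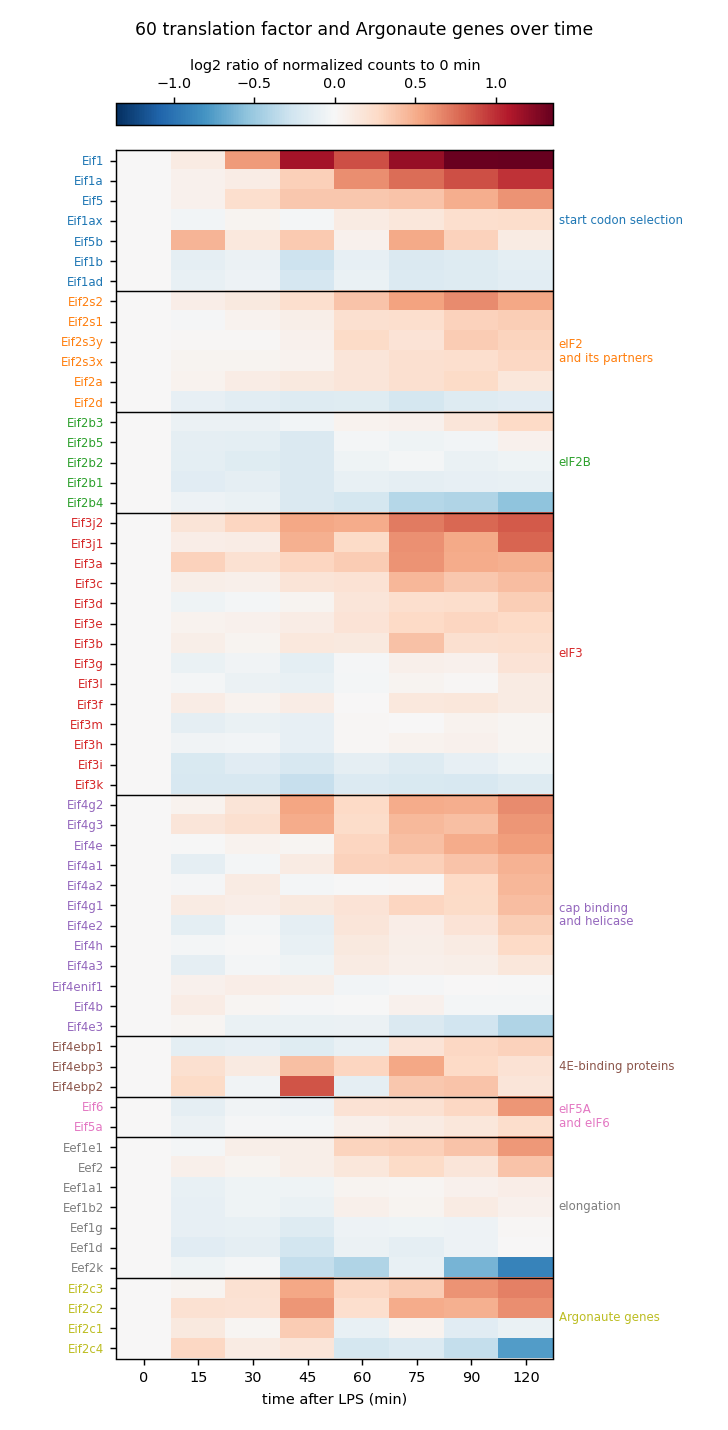
Log2 ratio of normalized counts to the 0 min library (colour) for the 60 tested genes (rows, grouped by role) at 8 time points (columns). Eif1 and Eif1a have the strongest red at 120 min, Eef2k and Eif2c4 the strongest blue, and Eif4ebp2 is red at 45 min but not at 60 min.

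On the scale of size factors the rise built up slowly. Measured against the 0 min library, the factors had a median log2 ratio of -0.01, 0.02 and 0.03 at 15, 30 and 45 min, of 0.09, 0.15 and 0.20 at 60, 75 and 90 min, and of 0.23 after 120 min, when that of all genes was -0.01. With total counts in place of size factors, the factors' median was -0.19 at 75 min, -0.06 at 90 min and 0.03 at 120 min, so no steady rise was seen on that scale. Eif1 was the first to pass 0.5 on the log2 scale, in the 30 min library. At 120 min, 13 factors lay above 0.5 (16.8% of all genes did) and 3 lay below -0.5 (15.9% of all genes did). With total counts, and also with total counts without Rn45s, 4 lay above 0.5 and 4 below -0.5. These scales lower the ratios of all genes, and the shares of all genes past the limits were not computed on them. These ratios compare single libraries and have no replicate check, and their intervals cover counting error only.

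**Figure D3:**
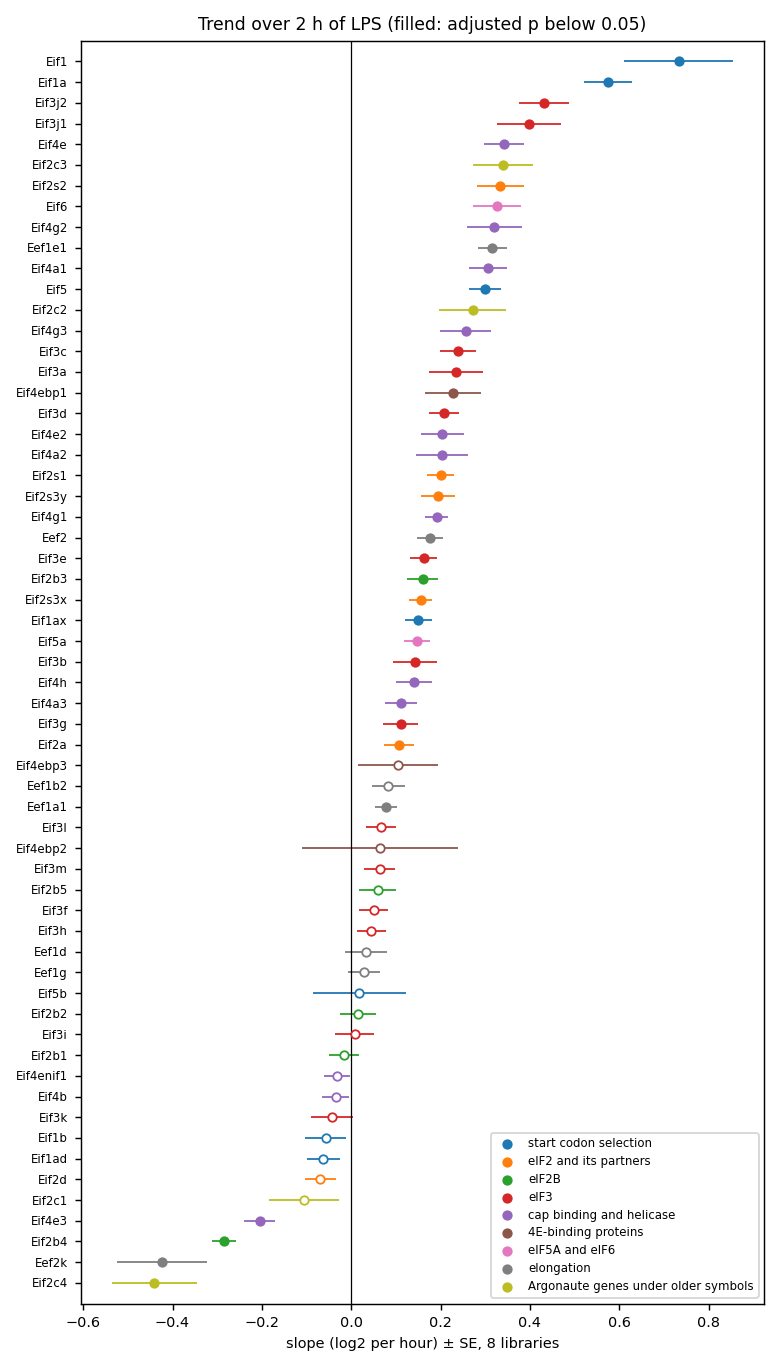
Slope over time (x axis, log2 per hour, with its SE) of the 60 tested genes, coloured by role, filled where the adjusted p was below 0.05. Slopes run from -0.44 for Eif2c4 to 0.73 for Eif1, and most filled points lie to the right of 0.

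The genes of start codon selection include the 2 factors with the steepest rise, Eif1 and Eif1a. Of 7 tested, 4 rose (Eif1, Eif1a, Eif5 and Eif1ax) and none fell. With total counts 3 rose (Eif1, Eif1a and Eif5) and 1 fell (Eif1ad, which was placed in this group by its symbol). Eif1, whose product keeps the scanning ribosome from starting at the wrong codon, had 7027 normalized counts before LPS, 7576, 10491 and 15331 at 15, 30 and 45 min, 12887, 15932 and 17805 at 60, 75 and 90 min, and 18003 at 120 min. It was already higher at 30 min than at 0 and 15 min, and ended as the most increased factor. It stepped down once, between the Rn45s-rich library of 45 min and that of 60 min. Relative to untreated cells it was 2.18-fold after 45 min and, after 120 min, 2.56-fold (95% interval 2.50 to 2.63), and the slope was 0.73 ± 0.12 per hour on the log2 scale (SE, edgeR adjusted p = 0.00154). Its level per length went from 49.6 to 110.4 rpkm.

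Eif1 (chr11:100319949-100322099 in GRCm38.p6) is the first of the genes whose promoter motifs are shown, because it changed most. In the RefSeq promoter table, which gives 250 bases before and 50 bases after each annotated start and matched 45 of the 63 genes, its promoter holds an AP-1 motif (TGAGTCA, searched together with its reverse complement TGACTCA) 157 bases upstream and a TATA motif (TATATAA or TATAAA on the gene's strand) that begins at base 8 after the annotated start. They are printed below with the motif in capitals, on the plus strand, at chr11:100319780-100319809 and chr11:100319944-100319973.
Eif1 AP-1: ctcgcccctcccTGAGTCAacagaacatcc
Eif1 TATA: cacaggggcggcTATATAAgtgaatacagg
An AP-1 motif was found in 3 of the 45 promoters (6.67%; Eif1, Eif3j1 and Eif3l) and in 5.95% of all 27025 symbols with a promoter, and a TATA motif in 6 (13.3%) and in 11.1%. The NF-kB motif, searched by name on both strands, was found in 2 of the 45 (4.44%, Eef1a1 and Eef2k) and in 9.55% of all symbols, and the CRE motif TGACGTCA in 1 (2.22%, Eef2) and in 2.03%. A match says only that these letters are present.

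Eif1a encodes eIF1A, the partner of eIF1 on the small subunit. It had 15312 normalized counts before LPS, 15898, 16411 and 19119 at 15, 30 and 45 min, 23709, 25916 and 28053 at 60, 75 and 90 min, and 30265 at 120 min. In contrast to Eif1, no library was lower than the one before it on the scale of size factors. The ratio at 120 min was 1.98 (1.94 to 2.01) and the slope was 0.57 ± 0.054 (edgeR adjusted p = 0.000124). Of the related genes, the X-linked Eif1ax rose to a ratio of 1.18 (1.16 to 1.20), while Eif1b, a close relative of Eif1, had one of 0.911 (0.869 to 0.955) and Eif1ad one of 0.908 (0.891 to 0.926), neither with a called slope. The call for Eif1ax was lost with total counts (adjusted p = 0.814).

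Eif5, which triggers GTP hydrolysis by eIF2 at the start codon, went from 32214 to 49109 normalized counts, a ratio of 1.52 (1.50 to 1.54), and was above the 0 min library at every later time point (slope 0.30 ± 0.035, edgeR adjusted p = 0.000308). Eif5b, which joins the ribosomal subunits, behaved differently. It had 9200, 10183, 9561 and 9910 normalized counts in the libraries of 0, 30, 60 and 120 min, but 12676, 11789, 13159 and 11438 in those of 15, 45, 75 and 90 min. All 4 libraries rich in Rn45s were thus above all 4 others, as was also the case for Eif4ebp2, and 1.2% of all genes tested showed this order. No factor showed the opposite order, which 1.25% of all genes did. Whether the Rn45s content had a part in it was not tested.

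**Figure D4:**
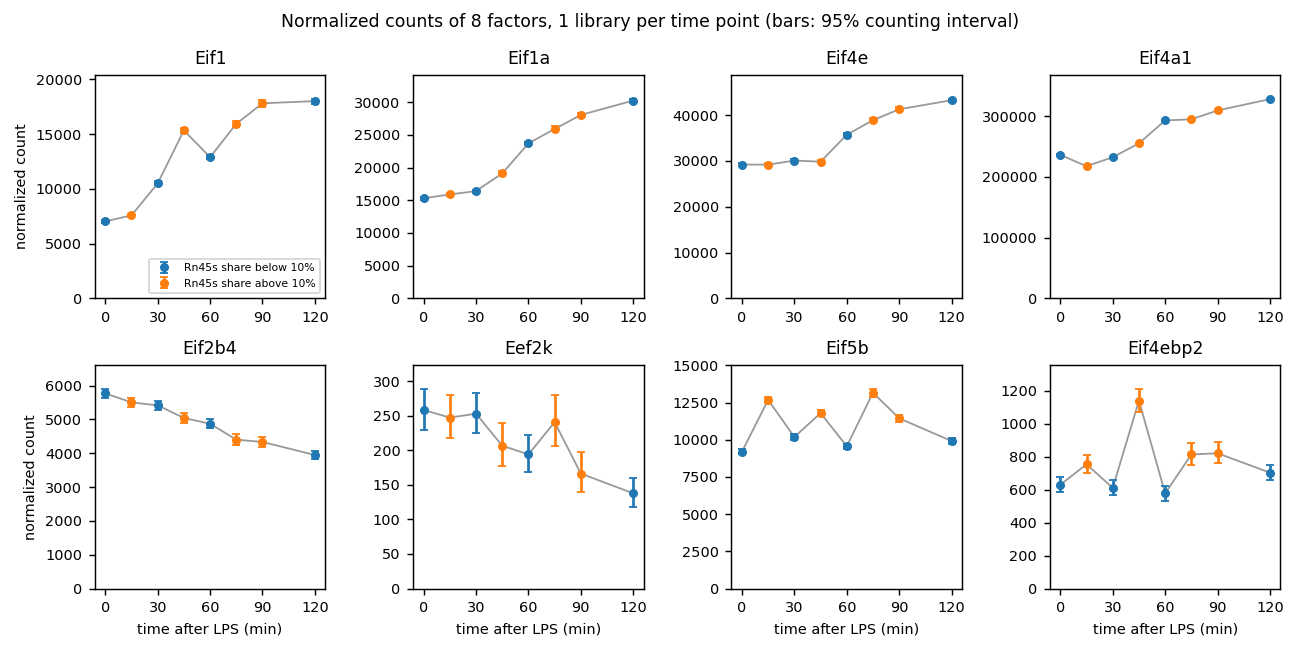
Normalized counts (y axis, from 0) of 8 factors against time after LPS (x axis, min), 1 library per point, with 95% counting intervals, and libraries with an Rn45s share above 10% in orange. Eif1, Eif1a, Eif4e and Eif4a1 end above and Eif2b4 and Eef2k end below their 0 min values, and the orange points of Eif5b and Eif4ebp2 lie above all blue ones.

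Of the 6 genes of eIF2 and its partners, 5 rose and none fell, and only Eif2s2 was still called higher with total counts, where Eif2d was called lower. Eif2s2, the beta subunit, had 30506 normalized counts before LPS, 32575, 33487 and 35648 at 15, 30 and 45 min, 39934, 44687 and 47519 at 60, 75 and 90 min, and 43889 at 120 min. On the scale of size factors, it was higher in each library than in the one before until 90 min. Its ratio at 120 min was 1.44 (1.42 to 1.46) and its slope 0.33 ± 0.053 (edgeR adjusted p = 0.0012). The alpha subunit Eif2s1, which carries the phosphorylation site of the stress kinases, had a ratio of 1.26 (1.24 to 1.27). The gamma subunit has an X-linked and a Y-linked gene, and Eif2s3x (1.22, 1.20 to 1.23) and Eif2s3y (1.24, 1.20 to 1.27) had overlapping intervals at 120 min, although the level of Eif2s3x at 0 min was 108.8 rpkm and that of Eif2s3y 29.8 rpkm. Eif2d, which can deliver tRNA to the ribosome independently of eIF2, had a ratio of 0.898 (0.865 to 0.932), and Eif2a, another factor that can bring in the initiator tRNA, rose to 1.116 (1.090 to 1.143), a call lost without the 0, 15, 30 or 90 min library.

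The 5 subunits of eIF2B did not move together. Eif2b4, the delta subunit of the regulatory core, had 5769 normalized counts before LPS, 5505, 5416 and 5044 at 15, 30 and 45 min, 4872, 4402 and 4334 at 60, 75 and 90 min, and 3949 at 120 min. On the scale of size factors, each library was lower than the one before. The ratio at 120 min was 0.684 (0.659 to 0.710), and the slope of -0.28 ± 0.026 was called (edgeR adjusted p = 0.000121). Eif2b3, the gamma subunit of the catalytic part, rose to a ratio of 1.20 (1.17 to 1.24, edgeR adjusted p = 0.00518), a call that was lost with total counts and without the 120 min library (adjusted p = 0.053). Ratios of the other subunits at 120 min were 0.932 for Eif2b1, 0.960 for Eif2b2 and 1.04 for Eif2b5, none with a called slope.

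**Figure D5:**
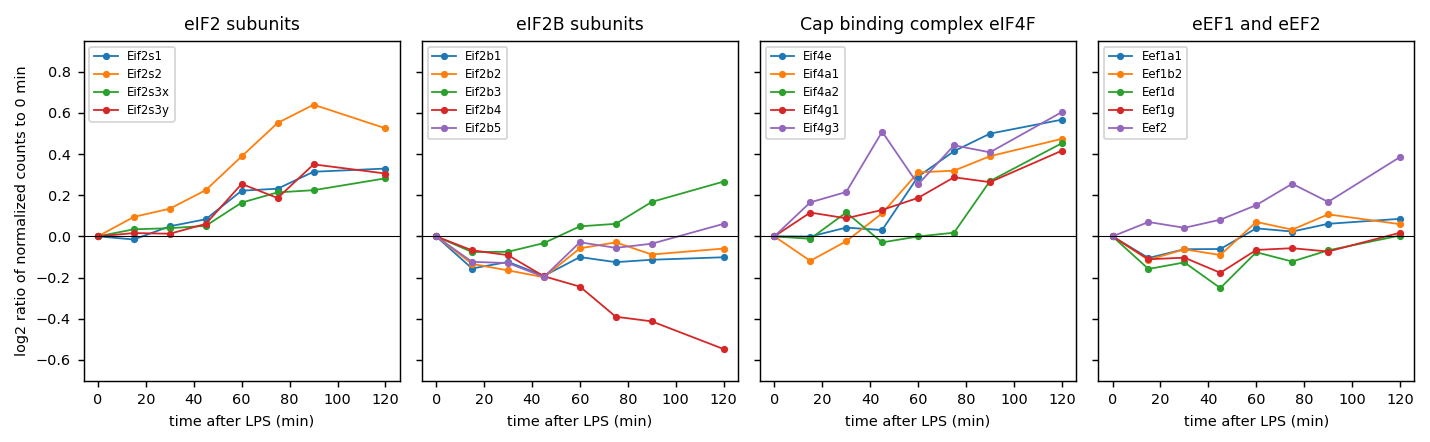
Log2 ratio of normalized counts to 0 min (y axis) against time after LPS (x axis, min) for subunits of 4 complexes, 1 library per point. Eif2b4 departs downwards from the other eIF2B subunits, the eIF2 and eIF4F subunits end between 0.28 and 0.60, and of the elongation factors Eef2 ends highest.

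Of the 14 genes of eIF3, the large complex that bridges the small subunit and the mRNA, 8 rose (Eif3a, Eif3b, Eif3c, Eif3d, Eif3e, Eif3g, Eif3j1 and Eif3j2) and none fell. With total counts 2 remained higher, both of them Eif3j genes. Eif3a, which encodes the scaffold of the complex, had a ratio of 1.39 (1.38 to 1.40) at 120 min, Eif3c one of 1.34 (1.33 to 1.36) and Eif3d, whose product can itself bind caps, one of 1.26 (1.24 to 1.28). Eif3e, Eif3b and Eif3g had ratios of 1.20, 1.17 and 1.13, and the 6 subunits without a call (Eif3f, Eif3h, Eif3i, Eif3k, Eif3l and Eif3m) had ratios from 0.887 for Eif3k to 1.08 for Eif3l. The call for Eif3g (adjusted p = 0.0437 by edgeR) was lost without the 15, 30, 60, 75, 90 or 120 min library, that for Eif3b (0.041) without the 0, 15, 30, 60 or 90 min library, and that for Eif3a (0.0125) without the 0 min library.

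The eIF3 subunit j loosely joins the complex and has 2 nearly identical genes. Eif3j1 went from 322 to 558 normalized counts between 0 and 120 min, a ratio of 1.73 (1.53 to 1.97), with a slope of 0.40 ± 0.073 (edgeR adjusted p = 0.00237). Eif3j2 had 575 and 1022, a ratio of 1.78 (1.62 to 1.96), with a slope of 0.43 ± 0.056 (edgeR adjusted p = 0.000475). Of the 58-base words of their transcripts, the length of a read, only 61.1% and 10.3% occur in no other gene, and reads shared between genes had been discarded. How the reads divide between the genes is therefore uncertain, although both were higher at 120 min than in any earlier library.

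Of the 12 tested genes of cap binding and its helicase, 9 rose and 1 fell. With total counts 3 rose (Eif4a1, Eif4e and Eif4g2) and 3 fell (Eif4b, Eif4enif1 and Eif4e3). Eif4e, the cap-binding protein itself, had 29212 normalized counts before LPS, 29194, 30087 and 29841 at 15, 30 and 45 min, 35726, 38908 and 41280 at 60, 75 and 90 min, and 43265 at 120 min. On the scale of size factors, the 4 libraries from 60 min on were all above the 4 earlier ones. The share of all genes with this order was not computed. The ratio at 120 min was 1.48 (1.46 to 1.50) and the slope 0.34 ± 0.045 (edgeR adjusted p = 0.000482).

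The relatives of eIF4E diverged. Eif4e2, which binds caps weakly and acts mostly as a repressor, had a ratio of 1.26 (1.24 to 1.29). Eif4e3 fell from 3176 normalized counts before LPS to 3010 after 60 min and 2402 after 120 min, to 0.756 times its start (0.720 to 0.794) with a slope of -0.21 ± 0.034 (edgeR adjusted p = 0.00155). The call for Eif4e2 was lost without the 120 min library (adjusted p = 0.078), while that for Eif4e3 was made with each library left out in turn.

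Among the helicases, Eif4a1 had 236443 normalized counts before LPS, 217751, 232567 and 255495 at 15, 30 and 45 min, 293205, 295012 and 309667 at 60, 75 and 90 min, and 328320 at 120 min, a ratio of 1.39 (1.38 to 1.40; slope 0.31 ± 0.042, edgeR adjusted p = 0.000631). On the scale of size factors, after a small dip at 15 min, all libraries from 45 min on were above the one at 0 min. Its paralogue Eif4a2 had a ratio of 0.9997 in the 60 min library but of 1.37 (1.34 to 1.40) in the 120 min library, a later change whose slope call was lost without the 120 min library (adjusted p = 0.218). Eif4a3, the helicase of the exon junction complex, had a ratio of 1.11 (1.10 to 1.13), and its call (adjusted p = 0.0324 by edgeR) was lost without the 15, 30, 75, 90 or 120 min library.

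The scaffolds rose too. At 120 min the ratio was 1.33 (1.32 to 1.34) for Eif4g1, 1.52 (1.48 to 1.56) for Eif4g3 and 1.56 (1.54 to 1.57) for Eif4g2, whose product lacks the eIF4E site and serves cap-independent initiation. Eif4g2 and Eif4g3 had a first peak at 45 min, with ratios of 1.45 and 1.42. They were lower at 60 min, with 1.20 and 1.19, an order they shared with Eif1. The 45 min library was rich in Rn45s (16.6%) and the 60 min library was not (8.27%). Whether this had a part in the order was not tested. The helicase cofactor Eif4b (0.979, 0.971 to 0.986) and Eif4enif1 (0.993, 0.967 to 1.02), which carries eIF4E into the nucleus, had no called slope, whereas the cofactor Eif4h rose to 1.21 (1.20 to 1.22), a call lost without the 120 min library (adjusted p = 0.178).

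The E-box CACGTG is a palindromic site known to be bound by Myc and related factors. It was found in the promoters of 12 of the 45 matched genes (26.7%) and of 8.09% of all symbols, expressed or not. Of the eIF4F subunits, Eif4a1, Eif4e and Eif4g1 held it, whereas Eif4a2 and Eif4g3 are not among the 12 genes. The E-box was the motif whose share differed most from that of all promoters among those searched. The windows are shown 5′ to 3′ on the gene's strand with the E-box in capitals, at chr11:69672595-69672624 (minus strand) for Eif4a1, chr3:138527192-138527221 (plus strand) for Eif4e and chr16:20672661-20672690 (plus strand) for Eif4g1.
Eif4a1 E-box: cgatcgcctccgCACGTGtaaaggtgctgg
Eif4e E-box: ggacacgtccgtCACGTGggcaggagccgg
Eif4g1 E-box: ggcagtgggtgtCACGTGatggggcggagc
Of the 12 genes, 7 rose (Eif4a1, Eif4e, Eif4g1, Eif4h, Eif3a, Eif5a and Eef2), 1 fell (Eef2k), 3 had no called slope (Eif1b, Eif3f and Eif3k) and 1 was not tested (Eif5a2). The motif was thus present in promoters of genes that moved in both directions, and its part in any change was not tested.

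The 3 genes of the 4E-binding proteins, which hold eIF4E inactive, showed 3 different courses. Eif4ebp1 was below its 0 min value through 60 min and then rose, from 7351 normalized counts before LPS and 6871 after 60 min to 9102 after 120 min, which is 1.24-fold (1.20 to 1.27, edgeR adjusted p = 0.0169, lost with total counts and without the 120 min library). Eif4ebp2 had 629.6 normalized counts before LPS, 754.6, 610.9 and 1141 at 15, 30 and 45 min, 577.9, 813.9 and 821.4 at 60, 75 and 90 min, and 703.5 at 120 min. The 45 min library was the highest, with a ratio of 1.81, and the next one, at 60 min, the lowest. Eif4ebp3 had between 513.3 and 740.7 normalized counts and no called slope.

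Outside the cap-binding group, both tested genes of eIF5A and eIF6 rose. Eif6, which keeps large ribosomal subunits apart from small ones, had 24735 normalized counts before LPS, 22692, 23935 and 23553 at 15, 30 and 45 min, 28424, 28526 and 30112 at 60, 75 and 90 min, and 37368 at 120 min. On the scale of size factors, the 4 libraries from 60 min on were all above the 4 earlier ones. The share of all genes with this order was not computed. The ratio at 120 min was 1.51 (1.49 to 1.53; slope 0.33 ± 0.054, edgeR adjusted p = 0.00153), and the ratio of Eif5a was 1.18 (1.17 to 1.19). With total counts neither slope was called.

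The elongation genes had a median log2 ratio of 0.06 at 120 min. Of 7 tested, 3 rose (Eef1a1, Eef2 and Eef1e1), 1 fell (Eef2k) and 3 were not called (Eef1b2, Eef1d and Eef1g). With total counts, only Eef1e1 rose and only Eef2k fell. Eef1a1 had a ratio of 1.06 at 120 min (1.059 to 1.063) and a slope of 0.078 ± 0.026 (edgeR adjusted p = 0.0336), a call that was lost in 11 of 17 settings; with total counts its slope was -0.054 and was not called (adjusted p = 0.405). Eef2 went from 331896 to 433487 normalized counts, a ratio of 1.31 (1.30 to 1.31), a call lost with total counts (adjusted p = 0.491). The subunits Eef1b2, Eef1d and Eef1g of the exchange complex of eEF1A had ratios of 1.042, 1.003 and 1.012.

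Eef1e1, despite its symbol, encodes a scaffold protein of the multi-tRNA synthetase complex. It had 8532 normalized counts before LPS, 8383, 8991 and 9048 at 15, 30 and 45 min, 10553, 10673 and 11186 at 60, 75 and 90 min, and 12807 at 120 min, a ratio of 1.50 (1.46 to 1.54) with a slope of 0.32 ± 0.032 (edgeR adjusted p = 0.000166). On the scale of size factors, its libraries from 60 min on were all above the earlier ones. The share of all genes with this order was not computed. Eef2k had 258.4, 247.4, 253.0, 206.7, 194.1, 240.8, 166.3 and 137.8 normalized counts in order of time. The 2 latest libraries were the lowest, with a ratio of 0.533 (0.439 to 0.646) at 120 min and a slope of -0.42 ± 0.10 (edgeR adjusted p = 0.00818), which was lost without the 120 min library (adjusted p = 0.071).

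The courses of the Argonaute genes Eif2c1 to Eif2c4, whose products bind small RNAs such as microRNAs, differed. Eif2c2, the gene of Argonaute 2, had a ratio of 1.55 (1.49 to 1.60) and Eif2c3 one of 1.60 (1.51 to 1.71), and both slopes were called, although that of Eif2c2 was lost without the 0 min library (adjusted p = 0.074) and without the 120 min library (0.060), as well as with total counts (0.099) and with total counts without Rn45s (0.101). Eif2c4 fell from 628.8 normalized counts before LPS to 532.5 after 60 min and 372.8 after 120 min, to 0.593 times its start (0.527 to 0.667; slope -0.44 ± 0.096, edgeR adjusted p = 0.0056, lost in 3 of 17 settings, among them without the 120 min library). Eif2c1 had a ratio of 0.943 and no called slope, but fell with total counts (adjusted p = 0.0248), so that on that scale 1 of the 4 genes rose and 2 fell. Without these 4 genes, 33 of 56 factors rose and 3 fell, and at 120 min 11 lay above 0.5 on the log2 scale and 2 below -0.5.

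Patterns over time were also grouped by the rule of the study, which looks for maxima and minima between pairs of libraries (exact negative binomial test, log2 fold change beyond 0.5) and so compares libraries, not conditions. Of the 63 genes, 7 had such an extremum, against 12.5% of all genes and 22.8% of those tested. Without the Argonaute genes, 6 of 59 had one. Eif1, Eif1a, Eif3j1 and Eif3j2 had a maximum at 120 min, Eef2k and Eif2c4 had a minimum at 120 min, and Eif4ebp2 had a maximum at 45 min followed by a minimum at 60 min. Of these, Eif1 was called in all 15 settings tried and Eif1a in 12. Eif4ebp2 was called in 9 settings and not without the 45 min library, and Eef2k, Eif2c4 and Eif3j1 were not called without the 120 min library, Eif2c4 also not without that of 30 min.

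Other genes of the translation machinery were read for comparison. Of all genes tested, 23.7% were called higher and 23.7% lower, and with total counts 9.89% and 36.7%. The calls of cytoplasmic ribosomal protein genes were not counted with total counts. Of 77 tested cytoplasmic ribosomal protein genes, 3 rose and none fell, with a median log2 ratio of -0.01 at 120 min against 0.23 for the factors, a distance that does not depend on the scale. Of the 5 tested genes of release and recycling, 4 rose, among them Etf1, the release factor that reads stop codons, with a ratio of 1.84 (1.82 to 1.86), and Denr, which helps to recycle the small subunit, with one of 1.77 (1.73 to 1.82). With total counts 2 of them, Etf1 and Denr, rose. Of the 5 genes of poly(A)-binding proteins and their partners 2 rose, whereas with total counts 1 rose (Pabpc1) and 1 fell (Paip1). Pabpc1, the main cytoplasmic poly(A)-binding protein, stood at 2.18, 1.27 and 1.99 (1.96 to 2.02) times its 0 min value after 45, 60 and 120 min. Of these libraries, that of 45 min alone was rich in Rn45s. None of the 9 mitochondrial factors rose and 2 fell (22.2%, near the share of all genes). With total counts 5 of them fell. Mtif3, a mitochondrial initiation factor, was lowest at 60 min with a ratio of 0.574.

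All 4 eIF2 kinases fell, as did 23.7% of all genes tested, whereas the phosphatase subunits that reverse their action did not. The 4 kinases were also called lower with total counts and with total counts without Rn45s, as were 36.7% and 42.1% of all genes. Both of these scales shift slopes downwards, so the calls on them are no separate support. Eif2ak3 (PERK, the kinase of the endoplasmic reticulum) stood at 0.426 times its 0 min value after 90 min and at 0.512 times (0.485 to 0.540) after 120 min (edgeR adjusted p = 0.00235), and the ratios of Eif2ak1, Eif2ak2 and Eif2ak4 at 120 min lay between 0.841 and 0.881. With the 0, 30, 60 and 120 min libraries alone, Eif2ak3 was the one still called. Ppp1r15b rose to 1.34 (1.32 to 1.36), and Ppp1r15a (GADD34) had 1631 normalized counts before LPS, 7220, 78032 and 78094 at 15, 30 and 45 min, 26096, 8503 and 10383 at 60, 75 and 90 min, and 16380 at 120 min. It stood at 47.9 times its 0 min value in the 45 min library and had no straight trend. The stress response genes Atf4, Ddit3 and Trib3 were highest at 60, 45 and 75 min, with ratios of 1.77, 2.75 and 4.13.

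Of the 14 genes of mTOR and MNK input, 6 rose and 1 fell, against 23.7% each way of all genes tested. With total counts 2 rose and 2 fell, against 9.89% and 36.7% of all genes. Rictor, a subunit of mTOR complex 2, reached a ratio of 2.26 (2.19 to 2.34), and Rheb, the GTPase that activates mTOR complex 1, one of 1.52 (1.49 to 1.56). Mknk1, one of the kinases of eIF4E, fell to 0.789 (0.752 to 0.827). Ddit4, an inhibitor of mTOR complex 1, stood at 7.71 times its 0 min value after 45 min and at 0.451 times (0.352 to 0.575) after 120 min.

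Many mRNAs of the translation machinery begin with a C followed by a run of C and T, the 5′ terminal oligopyrimidine (TOP) motif through which mTOR controls their translation. Read at the annotated start, a C followed by at least 4 bases of C or T was found in 2 of the 45 matched genes (4.44%) and in 3.01% of all symbols. The windows are on the gene's strand with the run in capitals, at chrX:94212627-94212651 (minus strand) for Eif2s3x and chr7:108934415-108934439 (plus strand) for Eif3f.
Eif2s3x start: CTTTTCTCTCCgagcaagatggctg
Eif3f start: CTCTCTTTCTCggcaagatggcttc
Of both genes, Eif2s3x rose and Eif3f (ratio 1.08, 1.05 to 1.10) had no called slope. Only runs that begin at the annotated first base were counted, and annotated starts may lie away from those used in these cells. The TATA motif of Eef1a1, for example, begins at base 24 after its annotated start. The search therefore cannot say how many of these mRNAs begin with a TOP motif.

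The gene spans of 12 of the 63 genes overlap that of another protein-coding gene, among them Eif3j1, Eif3j2, Eif4a2, Eif4e3, Eif5a and Eif5b. Reads that matched more than 1 gene symbol had been discarded by the authors, and what this took from the counts of these genes was not tested.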

How the data were processed

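The table deposited by the authors holds unnormalized counts, 1 column per time point. By the study's methods, libraries depleted of ribosomal RNA gave 58-base reads, which Bowtie aligned to the mm10 RefSeq transcriptome (2 mismatches allowed), and a read was counted for a gene symbol unless it also matched another. The submitters' processing notes name CASAVA 1.8.2 and DESeq 1.10.1. No column was left unused, and 6176 of 23143 symbols had no count. The members and lists were chosen with earlier results of these data known, and the motifs were chosen after values had been seen.

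Counts were divided by median-of-ratios size factors (0.71 to 1.23). The slope over time was tested with edgeR 4.0.16 in R 4.3.3 (quasi-likelihood, genes averaging 10 or more normalized counts), and DESeq2 1.42.0 was an alternative. The residual is the departure of 8 single libraries from a straight line, and nothing in the labels says how independent the cultures were. Maxima and minima were called with code for Python 3.11.15 (with scipy 1.17.1 and numba 0.67.0) with a blind dispersion over the 8 libraries, a p-value limit of 0.05 unadjusted and a log2 fold change limit of 0.5. Ratios carry exact conditional binomial 95% intervals, and levels per length exact Poisson 95% intervals, neither of which includes more than counting error. Where no read was counted, up to 3 were allowed for. For rpkm, 58-base words unique to a gene were counted in GENCODE vM21 transcripts matched by RefSeq accession. Coordinates and promoters are from RefSeq (GRCm38.p6). Scripts were tested on simulated data.

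Named genes were those with a called maximum or minimum, those with a called slope and a log2 ratio at 120 min beyond 0.5, the 5 highest and 5 lowest per length, the paralogue sets, and other pathway genes with a called maximum or minimum. Eif1a was added to the start codon group and the Argonaute genes were set apart once the symbols in the table were seen. Further members of each role, other pathway genes and the eIF2 kinases named outside this rule were chosen after their values were seen. Alternatives were the library scale, the low-count filter, each library left out, the time scale, Rn45s as covariate, the dispersion, the p-value adjustment, the fold limit and the transcript length.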

Additional observations from a re-analysis of the deposited data

How the results depend on the processing

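The count of 35 factors with a rising slope was 11 with total counts, 16 with total counts without Rn45s and 19 with the 0, 30, 60 and 120 min libraries alone, a choice made after seeing the data, and ranged from 26 to 35 with 1 library left out. The count of 4 with a falling slope was 9, 11 and 2 in the same settings, and ranged from 2 to 4, the lowest without the 120 min library. The 7 factors with a called maximum or minimum became 1 when p-values were adjusted by Benjamini-Hochberg, 1 when the log2 fold limit was raised to 1, 2 with the edgeR trended dispersion, 3 with total counts and 4 with the 0, 30, 60 and 120 min libraries alone, and ranged from 5 to 7 with 1 library left out. At 120 min, 13 factors above 0.5 became 4 with total counts, 4 with total counts without Rn45s and 1 with the limit of 1, and the 3 below -0.5 became 0 with the limit of 1. The median log2 ratio of 0.23 at 120 min became 0.031 with total counts and 0.040 with total counts without Rn45s. The median level per length of 49.6 rpkm was 47.7 rpkm with the longest annotated transcript. In each of these cases the cause was not tested beyond what the setting itself fixes. TMM factors gave 32 rising and 4 falling slopes, DESeq2 35 and 4, the square root of time 27 and 3, no filter 32 and 4, and Rn45s as covariate 35 and 4. Of the log2 ratios at 120 min of 61 genes, 59 moved by more than their counting interval with total counts, which subtract the same 0.20 from each. No paired analysis was possible because each time point has 1 library. Depth limits Eef1a2, which had 1 to 7 counts per library and a counting interval of 0.388 to 24.9 for its ratio at 120 min.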
